A study of Bos taurus with 24 samples.

Results

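The genes with the Ensembl identifiers ENSBTAG00000007239, ENSBTAG00000009289, ENSBTAG00000022032 and ENSBTAG00000014719 were followed in the granulosa cells of single cows. They are 4 of the 12868 genes that passed the filter on low counts, out of 24615 listed in every library, and all 4 passed that filter. They were chosen from measured values: in a regression over 23 cows they stood among the genes with the smallest p-values both for the blastocyst (BL) rate and for the kinetic score of the embryos grown from the same cow. The slopes of the first 3 on both scores were negative and those of ENSBTAG00000014719 positive. That relation is therefore a description, and nothing is read from whether the 4 genes passed a threshold in it.

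The libraries came from 24 Holstein cows. By the methods of the study the animals had calved before and were in the luteal phase of the cycle. The antral follicles of both ovaries were emptied, and each library is a pool of mural and cumulus granulosa cells over the follicles of 1 animal. Leukocytes were reduced with anti-CD45 beads and erythrocytes with a lysis buffer before total RNA was sequenced without ribosomal RNA. The oocytes of each cow were matured and fertilized in vitro with semen of a bull of high or low Nordic Total Merit (NTM), a breeding index. Among the 23 cows compared, 15 were paired with a high-NTM and 8 with a low-NTM bull. Cow 8, from the low-NTM class, was kept out of the fits and is shown beside the others. The study set that library aside as an outlier, with a low share of uniquely mapped and of exonic reads. It also stood apart in the study's clustering and principal components of expression. The BL rate is the percentage of oocytes that became blastocysts, and the kinetic score is the mean developmental stage of those blastocysts, from not expanded to hatched. The morphology score grades their appearance. Cows 1 and 15, both of the high-NTM class, had no blastocysts and a score of 0 on all 3 scales. The other 21 cows yielded blastocysts, with BL rates from 20 to 71% and kinetic scores from 1.00 to 1.88. The number of oocytes differed widely between cows in the study, some of which gave few. The counting error of the scores, including the rates of 0, is not given here.

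Granulosa cells line the antral follicle and surround the oocyte. They answer to follicle-stimulating hormone, turn androgens into oestradiol and pass metabolites and signals to the oocyte through gap junctions, and the state of the follicle at collection is known to bear on whether an oocyte can support an embryo. Blastocyst formation is the stage at which an embryo has separated its outer trophectoderm from the inner cell mass, and embryos that expand and hatch earlier are commonly read as developing faster. The gene table used here matched 0 of the 24615 identifiers, so the 4 genes are given by identifier only, their functions are not described, and the markers of granulosa cells and of other cell types were not looked up. In a pooled library, fewer cells of a type and less RNA per cell cannot be told apart.

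Total counts ran from 15525201 to 27074496 per library, with a median of 23513294.5, and each cow is 1 animal with 1 library. Levels are given as CPM, the counts divided by the size of the library after TMM scaling, which allows a gene to be compared between cows but not with another gene, since transcript length is not taken into account. The first principal component of log2 CPM held 38.1% of the variance over the cows. The study reports that the first component of its own expression data correlated with RNA integrity, which is not in the labels. Cow 24 had both the lowest total and the highest number of genes with a count (21629 against a median of 16350).

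ENSBTAG00000007239 was the most variable of the 4 genes. Its level was 0.622 CPM in cow 1, the lowest of the 23, and 202.4 CPM in cow 15, the highest, which were 14 and 4740 counts. Both of these cows scored 0, so the animals with the same score stood at the opposite ends of the range. The Wilson 95% intervals of these values, which cover counting error only, were 0.370 to 1.04 CPM and 197 to 208 CPM. The next highest level was 25.1 CPM in cow 4, so cow 15 exceeded every other animal by at least 8.06-fold. Among the 21 yielding cows the lowest level was 1.03 CPM in cow 16, the median 4.77 CPM and the highest that of cow 4. Cow 15 lay 42.5-fold above that median, and cow 1 was at 0.130 of it. The biological coefficient of variation is edgeR's estimate of the spread between cows beyond counting error, after the NTM class and the BL rate are fitted. It was 1.04 for ENSBTAG00000007239 and exceeded that of 96.8% of the genes tested. The median over all genes was 0.259.

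ENSBTAG00000009289 was nearly even over the 23 cows except in cow 15. Its level in the 21 yielding cows ran from 6.36 CPM in cow 22 through a median of 8.92 CPM to 16.7 CPM in cow 23. Cow 1 stood within that range at 7.28 CPM, below the median. Cow 15 stood far above it at 79.2 CPM, or 1854 counts, 4.74-fold higher than cow 23. The 2 cows with a score of 0 thus lay on either side of the median for ENSBTAG00000009289 as well.

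ENSBTAG00000022032 had the lowest median count of the 4 genes, 81 per cow in a range of 38 to 286. Cow 15 at 12.2 CPM and cow 1 at 7.77 CPM were its highest and second highest animals. In the 21 yielding cows it ran from 1.62 CPM in cow 18 through a median of 3.51 CPM to 6.41 CPM in cow 19, so the zero-score cows did not overlap with the others. They were 3.48-fold and 2.21-fold above the median of the yielding cows. Both zero-score cows were the 2 highest in 42 of the 12868 genes, or 0.326%.

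ENSBTAG00000014719, the gene with positive slopes, had the narrowest range of the 4. It was lowest in cow 1 at 4.22 CPM and second lowest in cow 15 at 4.78 CPM, at 0.448 and 0.508 of the median of the yielding cows. The yielding cows ran from 4.99 CPM in cow 14 through 9.41 CPM to 18.1 CPM in cow 20, followed by 16.4 CPM in cow 24. The zero-score cows lay below all others, but cow 14 was within counting error of cow 15, whose Wilson 95% interval was 3.97 to 5.75 CPM. Both zero-score cows were the 2 lowest in 51 genes, or 0.396% of those tested.

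**Figure D1:**
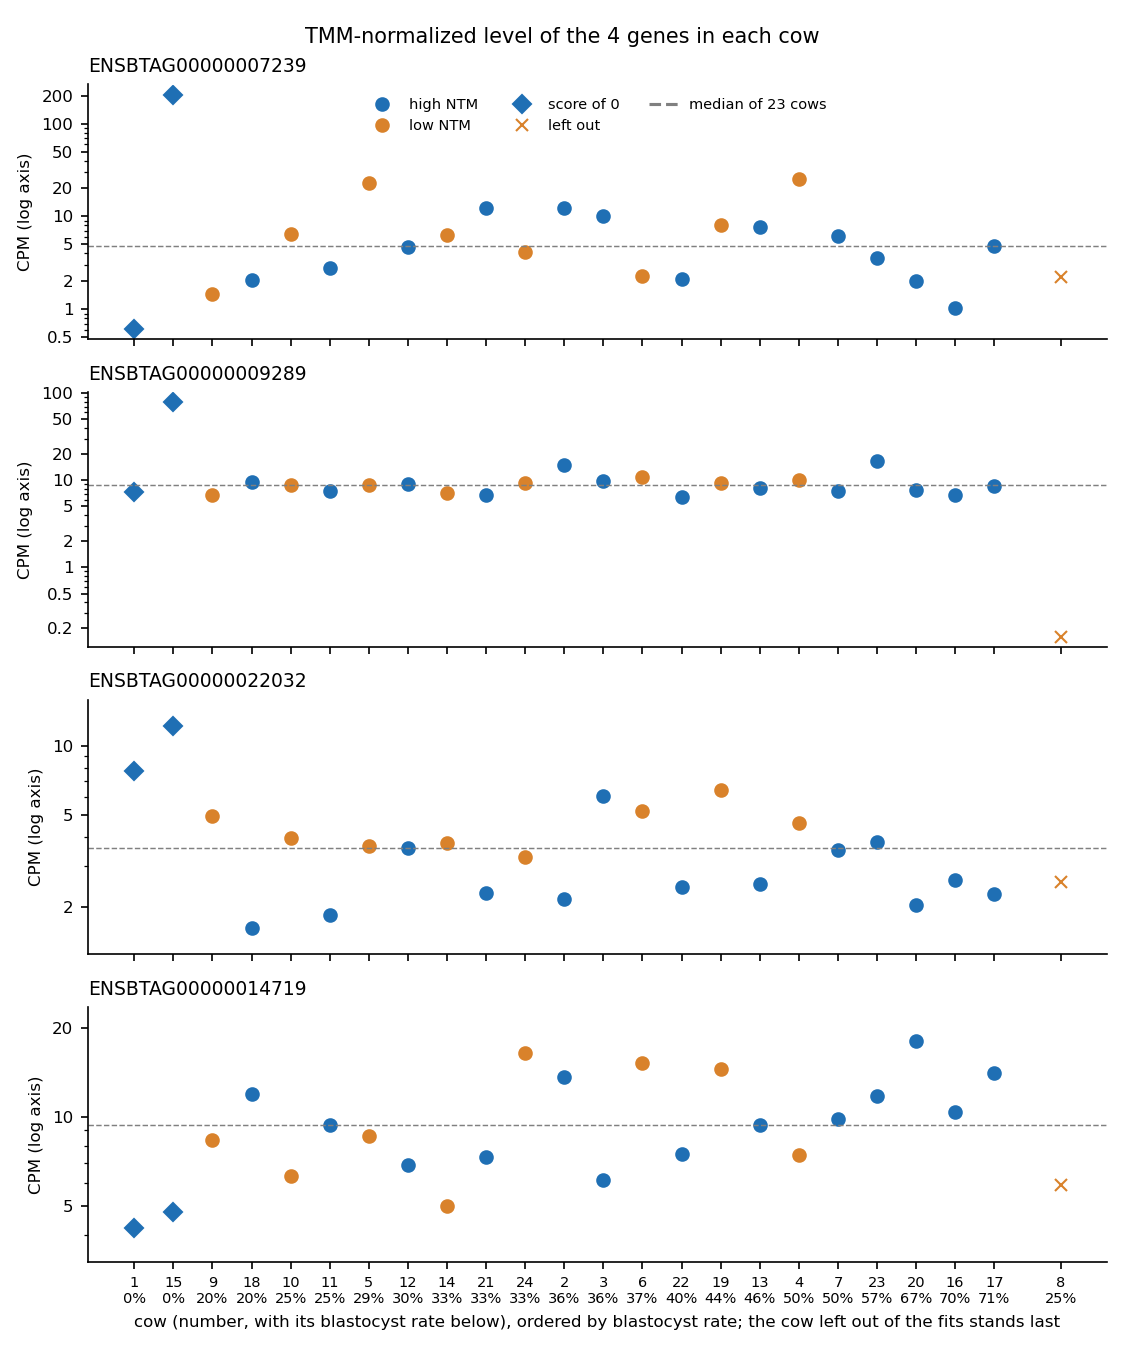
TMM-normalized CPM (log axis) of the 4 genes in each of the 24 cows, ordered by BL rate, with high-NTM cows in blue, low-NTM cows in orange, zero-score cows as diamonds, the cow kept out of the fits as a cross and the median of 23 cows as a dashed line. Cow 15 is the highest animal in the upper 3 panels and the second lowest in the bottom panel, and cow 8 is at 0.160 CPM for ENSBTAG00000009289.

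The high value of cow 15 was uncommon among the genes but not limited to these 4. The highest cow exceeded the next by more than 4-fold in 22 genes (0.171% of those tested), and cow 15 was that animal in 7 of them, which include ENSBTAG00000007239 and ENSBTAG00000009289. Cow 15 was the highest animal in 472 genes, or 3.67%, and cow 1 in 559 genes, or 4.34%. The total count of cow 15 was 23209562, close to the median, and its TMM factor was 1.01.

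Levels were then set against the BL rate. The slope was fitted by edgeR's quasi-likelihood regression with the NTM class as a covariate and is given as the log2 change per 20 percentage points of BL rate. The slope was -1.20 (SE 0.317) for ENSBTAG00000007239, -0.52 (SE 0.148) for ENSBTAG00000009289, -0.42 (SE 0.124) for ENSBTAG00000022032 and 0.38 (SE 0.111) for ENSBTAG00000014719. By p-value they were the genes at places 2, 5, 10 and 6. None of the 4 was among genes called at a false discovery rate (FDR) under 0.05, since the call was made in 0% of all genes (0 genes by edgeR's quasi-likelihood test, with 380 genes at an unadjusted p under 0.05).

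For the kinetic score the slope is the log2 change per unit of the score. It was -2.36 (SE 0.517) for ENSBTAG00000007239, -1.03 (SE 0.255) for ENSBTAG00000009289, -0.87 (SE 0.212) for ENSBTAG00000022032 and 0.79 (SE 0.227) for ENSBTAG00000014719, at places 3, 6, 5 and 13 by p-value. None of the 4 was called in this fit, with the filter on low counts, while 0.00777% of all genes were. That share is 1 gene, ENSBTAG00000046531, which is also led by cow 15, with 251.0 CPM there and 0.749 to 7.03 CPM in the other 22 animals. Over all genes, 511 had an unadjusted p under 0.05.

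When all genes were ordered by the worse of their places for the BL rate and the kinetic score, ENSBTAG00000046531 came first and the 4 genes took places 2 to 5. Their worse places were 3, 6, 10 and 13. The next genes in that order were ENSBTAG00000003749 at 21, with log2 slopes of 0.65 per 20 percentage points of BL rate and 1.31 per unit of kinetic score, and ENSBTAG00000015212 at 23, with 0.24 and 0.44. Over all genes tested, 48.2% had a slope below 0 for the BL rate and 44.4% for the kinetic score, and 78.3% had the same sign for both.

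The scores share much of their range across the cows. The BL rate and the kinetic score had a Pearson correlation of 0.723 over 23 cows, which include the zero-score cows, and 0.472 over the 21 that yielded blastocysts. When both scores entered a single model, the kinetic slope beside the BL rate was -1.94 (SE 0.940), -0.81 (SE 0.468), -0.74 (SE 0.381) and 0.46 (SE 0.307) for the 4 genes in the order above. The BL slope beside the kinetic score was -0.32 (SE 0.549), -0.16 (SE 0.262), -0.09 (SE 0.211) and 0.22 (SE 0.15). The standard errors of the kinetic slopes grew in each gene, and each slope kept its sign.

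The yielding cows taken alone gave other values for the 3 genes with negative slopes. Without cows 1 and 15, the slope on the BL rate was -0.12 (SE 0.416) for ENSBTAG00000007239, 0.03 (SE 0.121) for ENSBTAG00000009289 and 0.05 (SE 0.159) for ENSBTAG00000022032. The slope on the kinetic score was 0.28 (SE 1.36), 0.64 (SE 0.311) and 0.52 (SE 0.446), so all 3 turned positive. The BL slopes of the 3 genes and the kinetic slope of ENSBTAG00000007239 were smaller in size than their SE. The rank correlation of these genes with the BL rate over the 21 cows was -0.023, 0.059 and -0.018, and with the kinetic score 0.054, 0.251 and 0.046. Of these 6 slopes over the 21 cows, the BL slope of ENSBTAG00000007239 was the one that stayed negative, with an SE larger than itself.

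ENSBTAG00000014719 kept its sign in the yielding cows. Its slope was 0.28 (SE 0.141) on the BL rate and 0.67 (SE 0.422) on the kinetic score without cows 1 and 15. Spearman's rho was 0.398 with the BL rate and 0.353 with the kinetic score over 21 cows, against 0.542 and 0.508 over 23. In the 6 cows with a BL rate of 20 to 30% the level ran from 6.31 through a median of 8.48 to 11.9 CPM. In the 11 cows at 33 to 50% it ran from 4.99 through 9.41 to 16.4 CPM. In the 4 cows at 57 to 71% it ran from 10.4 through 12.9 to 18.1 CPM. These bands overlapped, and the level of all 4 cows of the upper band was above the median of each lower band. All 4 cows of the upper band were of the high-NTM class, while both lower bands held cows of each class. BL rate and NTM class are therefore not separated in these bands.

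The 3 genes with negative slopes did not fall from band to band in the same way. The medians of ENSBTAG00000007239 were 3.76, 7.78 and 2.79 CPM from the lower to the upper band, those of ENSBTAG00000009289 8.92, 9.22 and 8.10 CPM, and those of ENSBTAG00000022032 3.62, 3.51 and 2.44 CPM. In each gene the ranges of the 3 bands overlapped. For ENSBTAG00000007239 and ENSBTAG00000009289 the middle band had the highest median, and for all 3 genes the upper band had the lowest. The upper band holds high-NTM cows only, so its medians cannot be told apart from the NTM class.

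**Figure D2:**
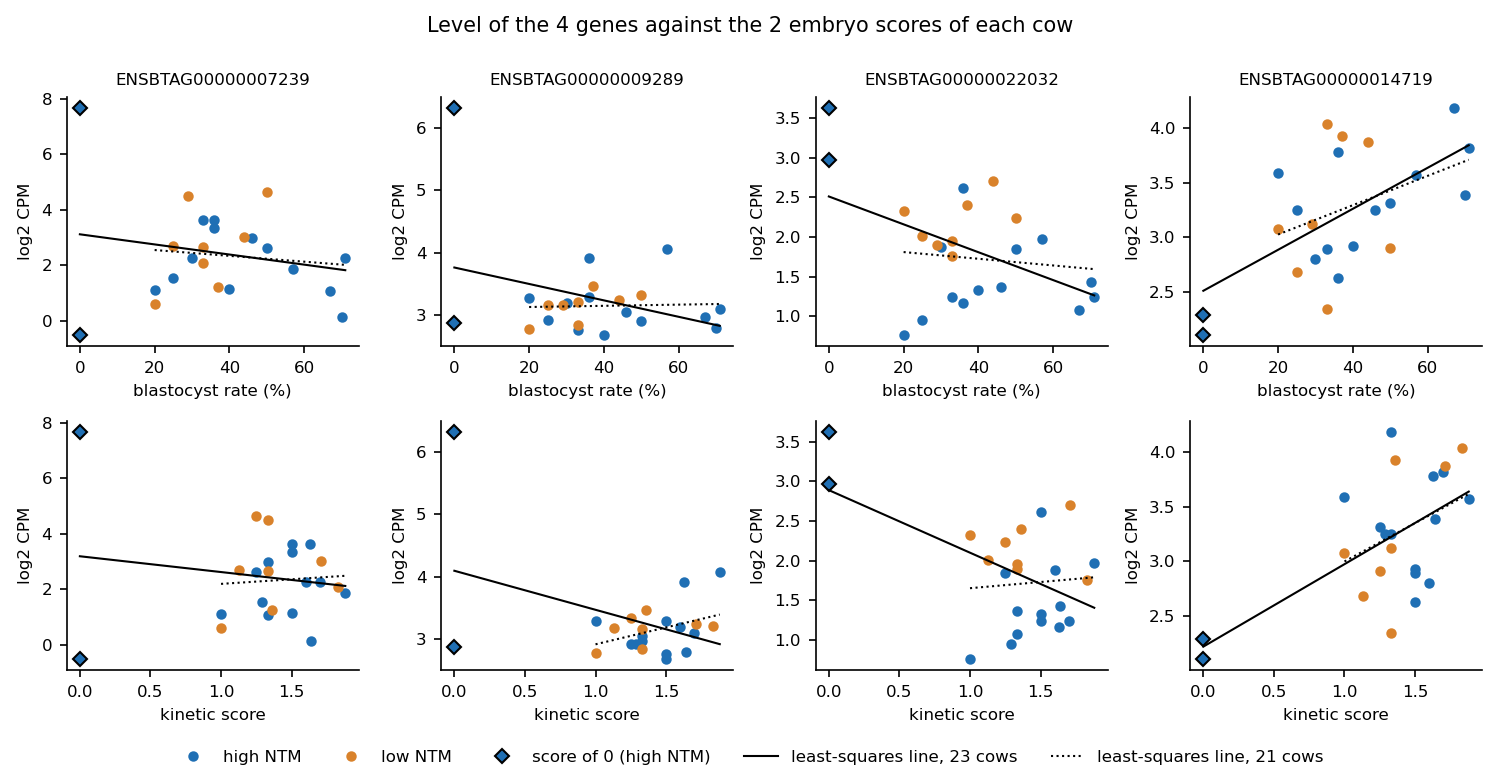
Log2 CPM of the 4 genes against the BL rate (upper row, percent) and the kinetic score (lower row) in 23 cows, with the least-squares line over 23 cows (solid) and over the 21 yielding cows (dotted), without a term for NTM class. Cow 15 is the upper diamond in the 3 left columns, and only in the right column do the solid and dotted lines rise together.

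Cows with the same score differed, by an amount that depended on the gene. There were 5 BL rates shared by 2 or 3 yielding cows, 11 cows in all. At a rate of 50%, ENSBTAG00000007239 stood at 6.10 CPM in cow 7 and at 25.1 CPM in cow 4, a ratio of 4.12. At 33%, ENSBTAG00000014719 stood at 4.99 CPM in cow 14 and 16.4 CPM in cow 24, a ratio of 3.28, and at 20%, ENSBTAG00000022032 stood at 1.62 CPM in cow 18 and 4.93 CPM in cow 9, a ratio of 3.05. These were the largest ratios of each gene. The smallest were 1.21, 1.33 and 1.32 in the same order, and those of ENSBTAG00000009289 ran from 1.19 to 1.55 over the 5 rates. The within-rate SD on the log2 scale was 0.828 for ENSBTAG00000007239, 0.305 for ENSBTAG00000009289, 0.729 for ENSBTAG00000022032 and 0.651 for ENSBTAG00000014719. The slope over 23 cows amounts to a log2 change of 0.98 for ENSBTAG00000014719 between 20 and 71% BL rate. At the ends of that span, the 2 cows at 20% stood at 8.35 and 11.9 CPM and the cow at 71% at 14.0 CPM.

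Single cows were then left out in turn. Without cow 15, the slopes on the BL rate and the kinetic score became 0.21 (SE 0.424) and 1.49 (SE 0.938) for ENSBTAG00000007239. They became 0.07 (SE 0.101) and 0.38 (SE 0.191) for ENSBTAG00000009289. Both genes changed sign, with BL slopes smaller than their SE. For ENSBTAG00000022032 the slopes became -0.23 (SE 0.130) and -0.52 (SE 0.248), smaller but still below 0. Without cow 1, the other animal with a score of 0, the slopes were -1.30 and -2.70 for ENSBTAG00000007239, -0.60 and -1.27 for ENSBTAG00000009289, and -0.37 and -0.85 for ENSBTAG00000022032. The 2 zero-score cows thus moved the first 2 genes in opposite directions, and all 3 genes kept their sign when any animal other than cow 15 was left out.

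The slopes of ENSBTAG00000014719 depended least on any animal. They ranged from 0.33 without cow 20 to 0.44 without cow 18 on the BL rate, and from 0.73 without cow 24 to 0.83 without cow 12 on the kinetic score, and were above 0 in all 23 fits of each. Without cows 20 and 24, the 2 animals with its highest levels, the slopes were 0.34 (SE 0.112) and 0.73 (SE 0.207). Without cow 15 they were 0.36 and 0.80. The level of ENSBTAG00000014719 was also higher in libraries with more genes detected (Pearson 0.488, Spearman 0.587, n = 23), and the part of this in the slopes was not tested. That correlation was 0.421 without cows 24 and 20, the farthest from the median number of genes.

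**Figure D3:**
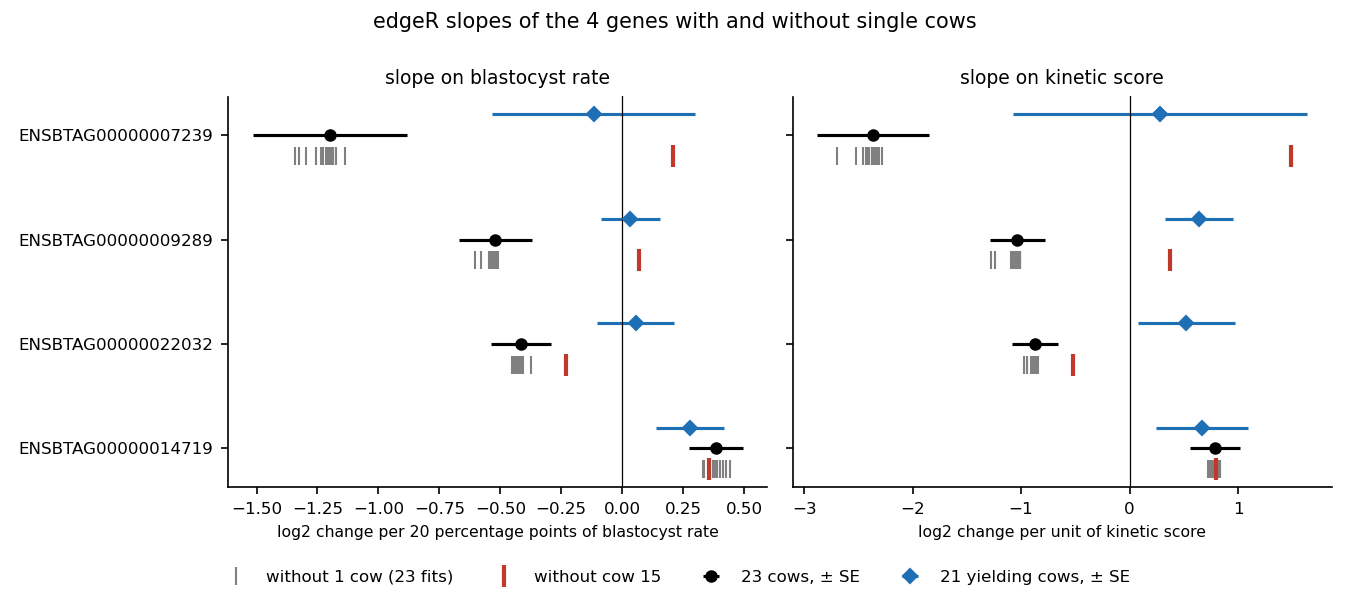
edgeR slopes of the 4 genes on the BL rate (left, log2 change per 20 percentage points) and the kinetic score (right, log2 change per unit) in 23 cows (black, ± SE), in the 21 yielding cows (blue, ± SE) and in 23 fits that leave out 1 cow each (grey ticks, cow 15 in red). The red ticks of ENSBTAG00000007239 and ENSBTAG00000009289 lie above 0 while their black points lie below it, and every mark of ENSBTAG00000014719 lies above 0.

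The morphology score was not used to choose the genes, but it shares the zero-score cows. Its Pearson correlation was 0.545 with the BL rate and 0.794 with the kinetic score over 23 cows, and 0.119 and 0.366 over the 21 yielding cows. Taken alone, the slope per unit of morphology was -1.07 (SE 0.320) for ENSBTAG00000007239, -0.61 (SE 0.153) for ENSBTAG00000009289, -0.45 (SE 0.126) for ENSBTAG00000022032 and 0.37 (SE 0.146) for ENSBTAG00000014719, which is given as a description for that reason. Beside the BL rate and the kinetic score, none of the 4 genes was called, nor was any other gene (0% of those tested by edgeR, with 1212 at an unadjusted p under 0.05). The slopes were then 0.37 (SE 0.665, edgeR FDR 0.823), -0.31 (SE 0.325, FDR 0.685), -0.11 (SE 0.251, FDR 0.863) and 0.06 (SE 0.20, FDR 0.908). Each was smaller than its standard error.

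The NTM class of the bull was the second measure outside the choice of the genes. The cells were collected before insemination, so the class is a label given to the cow's oocytes afterwards. None of the 4 genes was called between the classes by edgeR's quasi-likelihood test, and the call was made in 0% of all genes. Of the 12868 genes tested, 2770 had an unadjusted p under 0.05, against 380 for the BL rate and 511 for the kinetic score. The lack of a call therefore does not show that the classes are alike. The log2 difference, low minus high, was -0.94 (SE 0.906, FDR 0.556) for ENSBTAG00000007239, -0.62 (SE 0.412, FDR 0.365) for ENSBTAG00000009289, 0.25 (SE 0.316, FDR 0.669) for ENSBTAG00000022032 and 0.08 (SE 0.247, FDR 0.881) for ENSBTAG00000014719. Without the zero-score cows the difference for ENSBTAG00000007239 was 0.79 (SE 0.496), with the opposite sign, and that for ENSBTAG00000009289 was -0.0467 (SE 0.168).

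ENSBTAG00000022032 had the largest difference between the classes relative to its SE among the yielding cows, though it was not called. Its level ran from 3.30 through a median of 4.29 to 6.41 CPM in the 8 low-NTM cows and from 1.62 through 2.43 to 6.06 CPM in the 13 high-NTM cows. Of those 13 animals, 9 lay below the lowest low-NTM cow. The log2 difference was 0.67 (SE 0.209), with an edgeR FDR of 0.272. With the zero-score cows in, the difference was 0.25, and the high-NTM class then held both the lowest and the highest animals. Cow 8, a low-NTM animal outside the fits, stood at 2.56 CPM, below the other low-NTM cows.

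Whether the slopes differed between the classes was tested by an interaction term. For the BL rate, the slope in the low class minus that in the high class was 2.59 (SE 1.12, FDR 0.410) for ENSBTAG00000007239, 0.87 (SE 0.599, FDR 0.554) for ENSBTAG00000009289, 0.73 (SE 0.457, FDR 0.515) for ENSBTAG00000022032 and 0.02 (SE 0.417, FDR 0.989) for ENSBTAG00000014719. None of the 4 was called by edgeR, and the share called over all genes was 0% (1508 genes at an unadjusted p under 0.05). For the kinetic score the differences in slope were 1.79 (SE 2.59), 1.47 (SE 1.01), 1.04 (SE 0.787) and 0.85 (SE 0.649), with FDR from 0.837 to 0.905 and again 0% of all genes called (726 at an unadjusted p under 0.05). The low-NTM class holds no zero-score cow and spans BL rates of 20 to 50%, so its slopes rest on a narrower range. Without the zero-score cows the differences in BL slope were 1.73 (SE 0.909), 0.32 (SE 0.329), 0.25 (SE 0.406) and 0.14 (SE 0.433).

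The 4 genes were compared with each other over cows. The Pearson correlation of log2 CPM over 23 cows was 0.692 between ENSBTAG00000007239 and ENSBTAG00000009289, 0.517 between ENSBTAG00000009289 and ENSBTAG00000022032, and 0.365 between ENSBTAG00000007239 and ENSBTAG00000022032. ENSBTAG00000014719 was negatively related to the other 3, at -0.495 with ENSBTAG00000022032, -0.253 with ENSBTAG00000007239 and -0.142 with ENSBTAG00000009289. These values are a description, since the genes were selected on a shared relation to the scores and every pair shares the same 23 libraries. With the sign turned for the pairs of ENSBTAG00000014719, the median over the 6 pairs was 0.430.

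Of these 6 correlations, 4 were smaller in size without the zero-score cows. Without cows 1 and 15 the values for the first 3 pairs were 0.277, 0.180 and 0.266 in the same order, and the median over the 6 pairs was 0.252. The pair of ENSBTAG00000009289 and ENSBTAG00000014719 turned from -0.142 to 0.345. That of ENSBTAG00000022032 and ENSBTAG00000014719 went from -0.495 to -0.238, while that of ENSBTAG00000007239 and ENSBTAG00000014719 went from -0.253 to -0.307. Without cow 15 alone the median over the pairs was 0.0629. After the NTM class and both scores were removed by least squares, the pair of ENSBTAG00000007239 and ENSBTAG00000009289 still stood at 0.713 over 23 cows. It stood at 0.335 when cows 15 and 1 were dropped from those residuals, and at 0.245 when the 21 yielding cows were fitted alone.

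**Figure D4:**
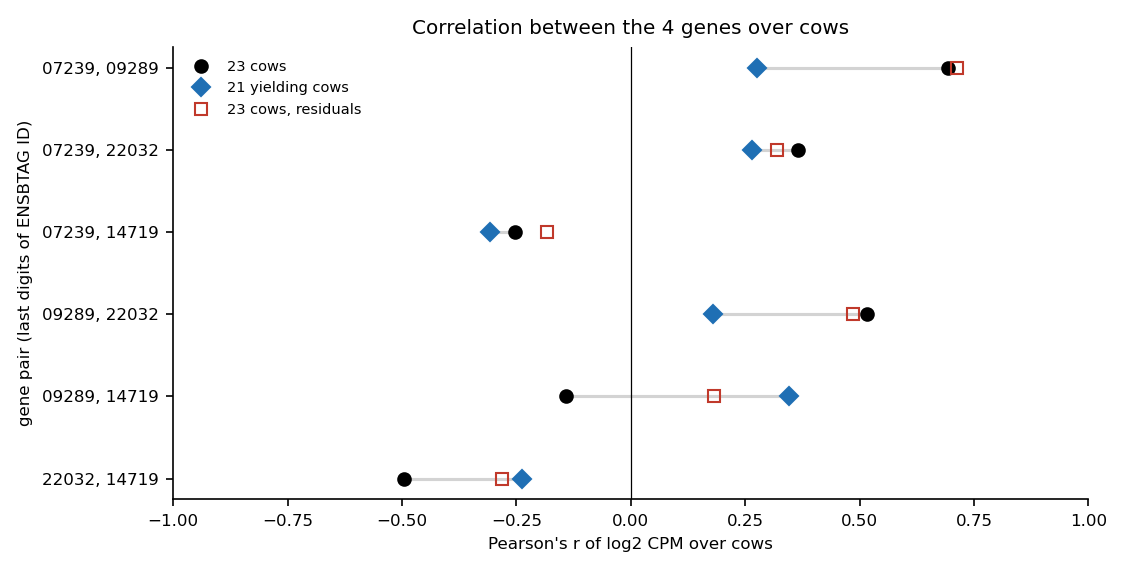
Pearson's r of log2 CPM over cows for the 6 pairs of the 4 genes (each named by the last digits of its identifier), over 23 cows (black), over the 21 yielding cows (blue) and for the residuals over 23 cows after removal of NTM class, BL rate and kinetic score (open red squares). The blue points lie between -0.307 and 0.345, and the black point and red square of the first pair stand at 0.692 and 0.713.

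By rank, no pair among the 4 genes was close. Spearman's rho was 0.440 for ENSBTAG00000007239 and ENSBTAG00000009289, which placed ENSBTAG00000009289 at rank 399.5 of the 12867 other genes in likeness to ENSBTAG00000007239. The largest in size was -0.452, between ENSBTAG00000022032 and ENSBTAG00000014719. The rank correlation of ENSBTAG00000009289 and ENSBTAG00000014719 was 0.20, opposite in sign to their Pearson correlation. For each gene, the remaining 3 stood at rank 150.5 or later in likeness of the same sign.

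The genes most like each of them were therefore others. For ENSBTAG00000014719 they were ENSBTAG00000017683, ENSBTAG00000021636 and ENSBTAG00000019636, with Spearman's rho of 0.852, 0.850 and 0.836 over 23 cows and 0.844, 0.808 and 0.790 over the 21 yielding cows. These neighbours stood at places 139, 83 and 13 by p-value for the BL rate. The choice of ENSBTAG00000014719 on that score favours high places in genes that follow it, so nothing is read from them. For ENSBTAG00000007239 they were ENSBTAG00000001078, ENSBTAG00000004556 and ENSBTAG00000003290, with rho of 0.811, 0.751 and 0.747, and at places 9804, 4964 and 5829 for the BL rate.

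For ENSBTAG00000009289 the nearest genes were ENSBTAG00000014335, ENSBTAG00000007417 and ENSBTAG00000032964, with Spearman's rho of 0.749, 0.745 and 0.677 over 23 cows and places 159, 2916 and 8621 for the BL rate. For ENSBTAG00000022032 they were ENSBTAG00000006738, ENSBTAG00000015327 and ENSBTAG00000016456, with rho of 0.686, 0.664 and 0.656 and places 492, 12847 and 7972. Pearson's r was 0.766, 0.406 and 0.365 for the neighbours of ENSBTAG00000009289 and 0.706, 0.417 and 0.569 for those of ENSBTAG00000022032. Median levels were below 1 CPM for ENSBTAG00000014335 (0.175), ENSBTAG00000007417 (0.693), ENSBTAG00000006738 (0.541) and ENSBTAG00000019636 (0.308), so their correlations rest on few counts. No gene was shared between the 4 sets of neighbours. The correlations are over the same libraries and share their depth and composition, and no p is given for them.

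Cow 8, whose library stands apart in its alignment and expression profile as given above, took no part in the choice of the genes. The part of these library traits in its values was not tested. Its levels were 2.24 CPM for ENSBTAG00000007239, 2.56 CPM for ENSBTAG00000022032 and 5.87 CPM for ENSBTAG00000014719, each within the range of the 23 cows. For ENSBTAG00000009289 only 3 counts were found, or 0.160 CPM with a Wilson 95% interval of 0.0544 to 0.471 CPM, below all 23 cows. The ratio to the lowest of them, cow 22 at 6.36 CPM, was 0.0252, with an exact Poisson interval of 0.00519 to 0.0736. With cow 8 in the fits the slopes on the BL rate were -1.16, -0.49, -0.40 and 0.40 for the 4 genes in the order above, and on the kinetic score -2.33, -1.0, -0.86 and 0.80.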

How the data were processed

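Reads were trimmed and quality filtered, aligned to the bovine genome UMD3.1 with STAR and counted per Ensembl gene with HTSeq by the authors, who deposited raw counts per gene for each cow. From the 24 deposited tables of counts, genes were kept where at least 3 of the 23 cows reached 1 CPM. Counts were scaled by TMM and tested with edgeR 4.0.16 (quasi-likelihood F test, NTM class as a covariate, Benjamini-Hochberg FDR under 0.05 over all genes kept) in R 4.3.3. The SE of an edgeR slope or difference was derived as its size divided by the square root of its F statistic. Log2 CPM used a prior count of 2. The age of the cow, RNA quality, date and bull, for which the study's models adjusted, are not in the labels and were not used, so the scores here are not adjusted for the bull. DESeq2 1.42.0 and limma 3.58.1 (voom with sample quality weights) served as alternatives, beside other scalings and filters, a principal component as covariate, scores as ranks and cows left out. The edgeR code was tested on simulated counts with even slopes, into which no single extreme cow was built. That test does not bear on slopes led by a single animal.

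The 4 genes and the tests were chosen with earlier results of these data known. Beside the 4 genes, the text names the 3 genes with the highest Spearman correlation to each over 23 cows, the genes next to them in the order by the worse place, and genes called in either regression. Intervals of single values are Wilson 95% intervals (scipy 1.17.1) and cover counting error only. The fits without cows 20 and 24 were chosen after seeing the data.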

Additional observations from a re-analysis of the deposited data

Results flagged for a closer look

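ENSBTAG00000009289 stood out in cow 8, the low-NTM animal whose library the fits did not use. The alignment and expression profile of that library stood apart from the rest. The gene had 0.160 CPM there (3 counts), below the 6.36 to 79.2 CPM of the other 23 cows. On the log2 scale this was -5.31 relative to the line fitted on the BL rate, against a residual SD of 0.724 over the 23 cows. The other 3 genes in cow 8 were within the range of the 23 cows. Among the 8 low-NTM cows in the fits no animal stood apart from the others in any of the 4 genes by Dixon's criterion, with the gap of the outermost cow at 0.153 to 0.314 of the range. The criterion was not applied to the high-NTM cows, among them cow 15.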

How the results depend on the processing

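Without the 2 zero-score cows the signs reversed for the BL slopes of ENSBTAG00000009289 (0.0336) and ENSBTAG00000022032 (0.0549), for the kinetic slopes of ENSBTAG00000007239 (0.28), ENSBTAG00000009289 (0.64) and ENSBTAG00000022032 (0.52), for the morphology slopes beside both scores of ENSBTAG00000009289 (0.0821) and ENSBTAG00000022032 (0.15), for the NTM differences of ENSBTAG00000007239 (0.79) and ENSBTAG00000014719 (-0.0379), and for the interaction of NTM class and kinetic score of ENSBTAG00000007239 (-1.68), ENSBTAG00000009289 (-0.52) and ENSBTAG00000022032 (-0.86). Apart from the kinetic slopes of ENSBTAG00000009289 and ENSBTAG00000022032 and the NTM difference of ENSBTAG00000007239, each reversed value was smaller in size than its SE. The correlation of ENSBTAG00000009289 and ENSBTAG00000014719 became 0.345, and 0.103 with cow 8 included, and the median over the pairs 0.252. DESeq2 turned the NTM difference of ENSBTAG00000007239 to 0.88. The cause of these changes was not tested. With limma voom and sample quality weights together the BL slope of ENSBTAG00000007239 was -0.34 (SE 0.443), against -1.20 (SE 0.317) with edgeR. With the first principal component as covariate, the edgeR FDR of the 4 genes was 0.132 to 0.237 for the BL rate. For the kinetic score it was 0.0609 to 0.304. Without that covariate the FDR was 0.977 for the BL rate and 0.585 to 0.969 for the kinetic score. The number of genes called for the kinetic score, 1 with edgeR, was 3 with DESeq2, 2 with limma voom and quality weights, 7 with the first principal component as covariate, 0 with scores as ranks, 0 without the zero-score cows and 186 without a filter on low counts. In that last setting 22830 genes were tested. The edgeR FDR there was 0.0206 for ENSBTAG00000007239, 0.0432 for ENSBTAG00000009289, 0.0489 for ENSBTAG00000022032 and 0.105 for ENSBTAG00000014719. The genes were chosen on this score, so nothing is read from these values. DESeq2 called 12 genes for morphology beside both scores, 16 for NTM class and 1 for the interaction of NTM class and BL rate, 2 genes were called for NTM class with cow 8 included, and 364 for the interaction of NTM class and kinetic score without the filter. Leaving out 1 cow at a time gave 0 to 1 genes for the BL rate (1 without cow 1), 0 to 3 for the kinetic score (0 without cow 15, 3 without cow 23) and a median correlation from 0.0629 (without cow 15) to 0.522 (without cow 1). The BL slope then ran from -1.34 (without cow 4) to 0.21 (without cow 15) for ENSBTAG00000007239 and from -0.605 (without cow 1) to 0.0693 (without cow 15) for ENSBTAG00000009289, the kinetic slope from -2.70 (without cow 1) to 1.49 (without cow 15) and from -1.27 (without cow 1) to 0.38 (without cow 15), and the correlation of ENSBTAG00000009289 and ENSBTAG00000014719 from -0.220 (without cow 14) to 0.378 (without cow 15). For ENSBTAG00000014719, no alternative changed the sign of either slope. No paired analysis was possible because the replicate numbers follow the order of the samples and tie no animals together, and neither bull nor sampling date is in the labels. Depth limits ENSBTAG00000007239 in cow 1 (14 counts) and ENSBTAG00000009289 in cow 8 (3 counts).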
